A study of Bos taurus with 170 samples.

Results

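Blastomeres of the bovine Day 3 embryo were compared according to whether their transcriptome held a transcript of MYC. Of 170 cells in the series, 123 came from 8 Day 3 embryos, and 103 of these had 10000 or more unique molecular identifiers (UMI) on genes, the ERCC spike-ins left out. A UMI marks 1 captured mRNA molecule, so that PCR copies are counted as 1, and as tags are read from the transcript's end, counts were not divided by gene length. Of the 103 cells, 52 had 1 or more UMI of MYC and 51 had 0. The comparison was made within embryos, and the 6 embryos with 2 or more cells in both groups contributed 28 cells with and 50 cells without a MYC UMI. The numbers of cells with and without a MYC UMI were 2 and 11 in Day3-E1, 4 and 9 in Day3-E2, 5 and 8 in Day3-E3, 3 and 10 in Day3-E5, 5 and 7 in Day3-E7, and 9 and 5 in Day3-E8. Day3-E4, with 10 and 1, and Day3-E6, with 14 and 0, were not paired. The measured MYC UMI of a cell formed the groups, so values of MYC itself are a description, and MYC was left out of the tested genes.

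All Day 3 embryos were labelled as 16-cell stage. By the study's collection times after fertilisation, Day3-E1 to Day3-E4 were the youngest, Day3-E5 and Day3-E6 were older, and Day3-E7 and Day3-E8 the oldest. The labels p1, p3 and p2 of these embryos follow the same order, so label and age cannot be told apart. The embryos came from slaughterhouse oocytes matured and fertilised in vitro and were cultured in synthetic oviductal fluid, without a further treatment or genetic change. Cumulus cells and the zona pellucida were removed, and every blastomere was lysed singly for SCRB-Seq, a plate-based method that reads barcoded cDNA. Cells of an embryo are not independent, and the embryo was taken as the replicate.

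MYC encodes a transcription factor of the basic helix-loop-helix leucine zipper family, which binds DNA as a dimer with MAX. It is known as an activator of genes for ribosome assembly, nucleotide synthesis and growth. In cattle, major genome activation takes place from the 8-cell to the 16-cell stage, while transcripts stored by the oocyte are degraded.

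MYC transcripts were few in each cell. The 52 cells together held 113 MYC UMI, with a median of 2 and a maximum of 8, and 25 of them rested on a single UMI. Of the 28 cells in paired embryos, 14 had exactly 1 UMI and 14 had 2 or more. The share of cells with a MYC UMI was 50.5% over the 103 cells (95% Wilson interval 41.0% to 59.9%, counting error only), and its mean over embryos was 50.6% ± 31.3 (SD, n = 8). It ran from 15.38% (Day3-E1) over 23.1% (Day3-E5), 30.8% (Day3-E2), 38.5% (Day3-E3), 41.7% (Day3-E7), 64.3% (Day3-E8) and 90.9% (Day3-E4) to 100% (Day3-E6). Neighbours in this order had overlapping Wilson intervals. Among Day 2 blastomeres with 10000 or more UMI, 1 of 37 cells had a MYC UMI.

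**Figure D1:**
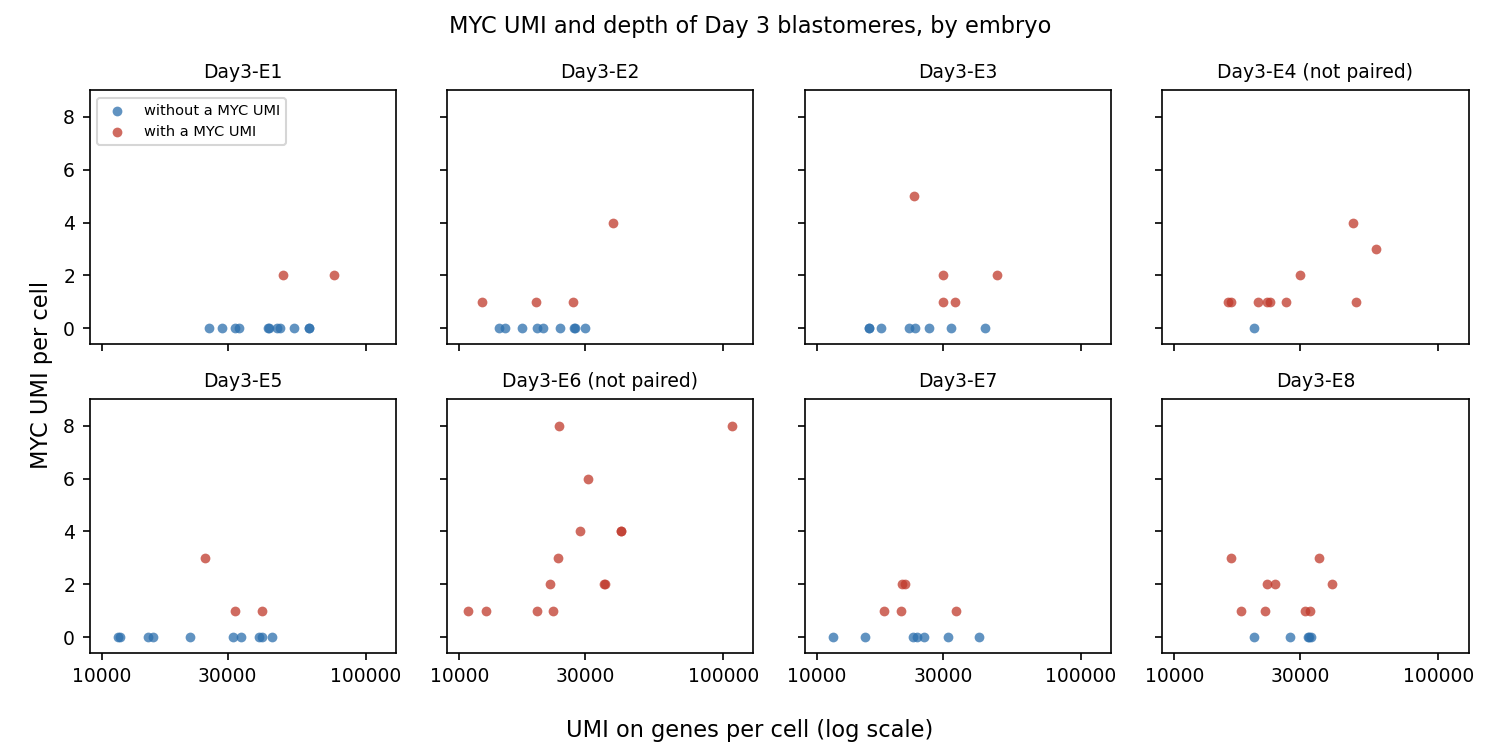
MYC UMI per cell (vertical axis) against UMI on genes per cell (horizontal axis, log scale) for the 103 Day 3 blastomeres with 10000 or more UMI, 1 panel per embryo. Each point is a cell, blue without and red with a MYC UMI. Most cells with a MYC UMI have 1 or 2, and Day3-E6 has a MYC UMI in all 14 cells.

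A count of 0 does not show that a cell lacked MYC mRNA. A single UMI stood for a median level of 37.2 CPM, counts scaled to 1000000 UMI on genes, and for 9.23 to 92.6 CPM in single cells. The MYC level in cells with a UMI had a median of 56.2 CPM (range 20.6 to 336.6). For a cell without a MYC UMI, 3 counts of its total set the limit that a count of 0 allows, and this limit had a median of 110.7 CPM (range 49.2 to 260.6). In only 3 of the 51 cells was it under 56.2 CPM. When each cell was thinned to 10000 UMI, 31 of the 103 cells still had a MYC UMI, and the mean share over embryos was 29.9% ± 23.4 (SD, n = 8). The groups are thus cells in which MYC was or was not sampled. At the depth threshold itself, the shallowest cell kept had 10804 UMI and 1 MYC UMI, and the deepest cell left out had 9394 UMI and 0 of MYC.

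The depth of both groups was compared because deeper cells are more likely to yield a MYC UMI. Cells with a MYC UMI held 60672 UMI (geometric mean over cells) in Day3-E1, against 41430 in cells without. The corresponding values were 22228 against 21008 in Day3-E2, 32099 against 23228 in Day3-E3, 31661 against 23520 in Day3-E5, 22460 against 22768 in Day3-E7 and 25699 against 28448 in Day3-E8. Depth was therefore greater in cells with a MYC UMI in 4 of 6 embryos, and the difference averaged 0.23 on the log2 scale (SD 0.29, n = 6), a 1.17-fold difference. It did not exceed the spread between embryos (exact sign-flip permutation test, two-sided, p = 0.1875, adjusted over the 3 depth measures p = 0.328). Taken from the median UMI of each group the difference was 0.12 on the log2 scale (exact permutation test, p = 0.4375). With 6 embryos, 0.03125 is the smallest p this test allows. With cells of 2000 or more UMI, in 7 embryos, the depth difference was 0.81 and past the threshold (exact permutation test, p = 0.0156, the smallest it then allows).

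**Figure D2:**
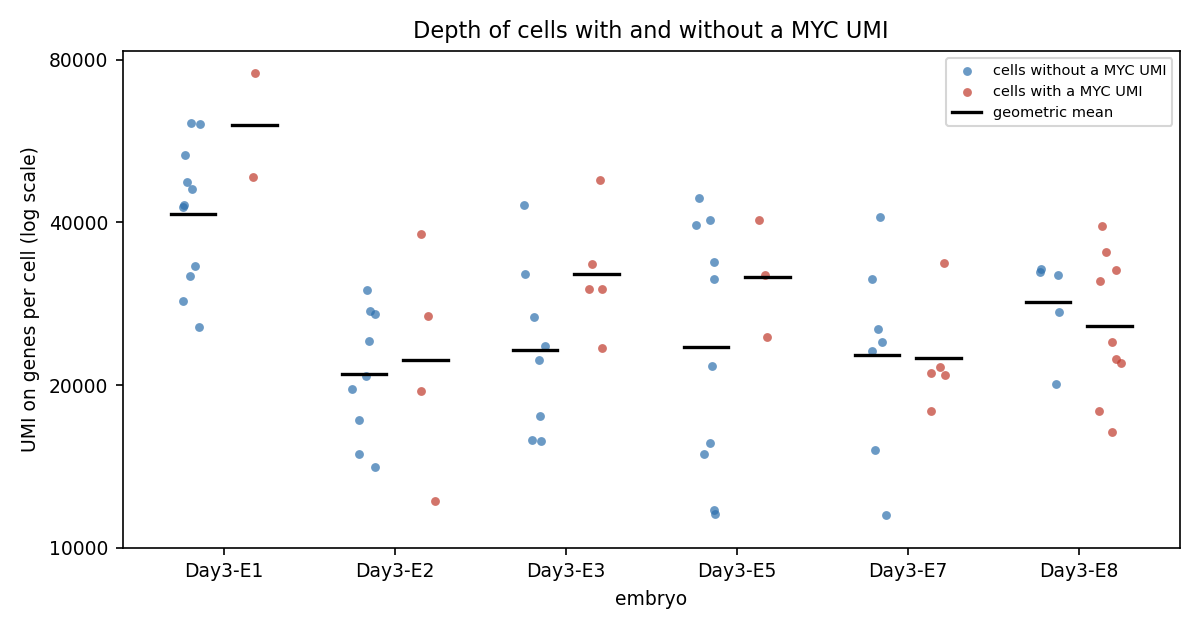
UMI on genes per cell (vertical axis, log scale) in the 6 paired embryos (horizontal axis). Points are cells without (blue) and with (red) a MYC UMI, with a little horizontal scatter, and black lines are geometric means. The red line lies above the blue group's line in Day3-E1, Day3-E2, Day3-E3 and Day3-E5 and below it in Day3-E7 and Day3-E8.

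Cells with a MYC UMI had 4810 ± 730 detected genes (SD, n = 6 embryos) and cells without had 4559 ± 425. The difference of 251 genes was not past the threshold (exact permutation test, p = 0.219, adjusted p = 0.328). After thinning to 10000 UMI it was -3.43 genes (exact permutation test, p = 0.9375). The share of ERCC spike-in UMI in a cell, which is lower where a cell yields more mRNA, was 2.00% ± 0.73 with and 1.91% ± 0.70 without a MYC UMI (SD, n = 6), higher with a MYC UMI in 5 of 6 embryos (exact permutation test, p = 0.406, adjusted p = 0.406). Summed over cells, the 12 groups used for the gene comparison held between 96743 and 473786 UMI.

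Markers of the expected cells were present. The 78 cells held 1972 UMI of SALL4, a zinc finger factor of the early embryo, and 93 of POU5F1. Among oocyte-derived transcripts they held 1383 UMI of GDF9, 557 of ZP3, 425 of OOEP and 407 of NLRP5. Of the sperm transcripts, TNP1 had 2 UMI and PRM1 and PRM2 were without an entry in the table. The 8 sperm genes of the table summed to 67.3 ± 25.6 CPM with and 76.7 ± 17.8 CPM without a MYC UMI (SD, n = 6). ODF2, the most abundant of them, had 59.9 and 68.7 CPM. Of the cumulus markers, FSHR and CYP19A1 had no entry, and COL1A2, VIM, DCN and PTX3 had 2 to 4 UMI each, but the hyaluronan synthase HAS2 had 462 and COL1A1 had 115. The 24 cumulus genes of the table summed to 523 ± 136 CPM in cells with and 521 ± 120 CPM in cells without a MYC UMI (SD, n = 6), and TIMP1 was at 0. HAS2, the most abundant, had 152 ± 83.0 and 210 ± 77.9 CPM (log2 fold change -0.53, SE 0.21, edgeR p = 0.0122, adjusted p = 0.436), and COL1A1 had 75.9 and 37.1 CPM. Whether cumulus RNA had a part in the gene differences was not tested. Cell barcodes were used more than once in the series, 77 of 93 by a pair of cells, and 65 of the 78 cells shared a barcode with a cell of another embryo. That other cell held a MYC UMI for 6 of 23 cells with and 10 of 42 cells without a MYC UMI.

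No gene passed the test between cells with and without a MYC UMI. Of 3301 genes with enough counts, edgeR's quasi-likelihood test with the embryo as a block called 0 at an adjusted p under 0.05 (0% called), and DESeq2 called 0. At an unadjusted p under 0.05 edgeR had 235 genes, of which 158 (4.79% of those tested) were higher and 77 (2.33%) lower in cells with a MYC UMI, and DESeq2 had 113 (3.42%). The lowest adjusted p by edgeR's test was 0.147, shared by 16 genes, all of them higher with a MYC UMI. After scaling, 73 genes (2.21%) were higher in all 6 embryos and 62 (1.88%) lower in all 6. The median log2 fold change over all tested genes was 0.0047 with a median standard error of 0.21, and 3 genes differed 2-fold or more in either direction.

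**Figure D3:**
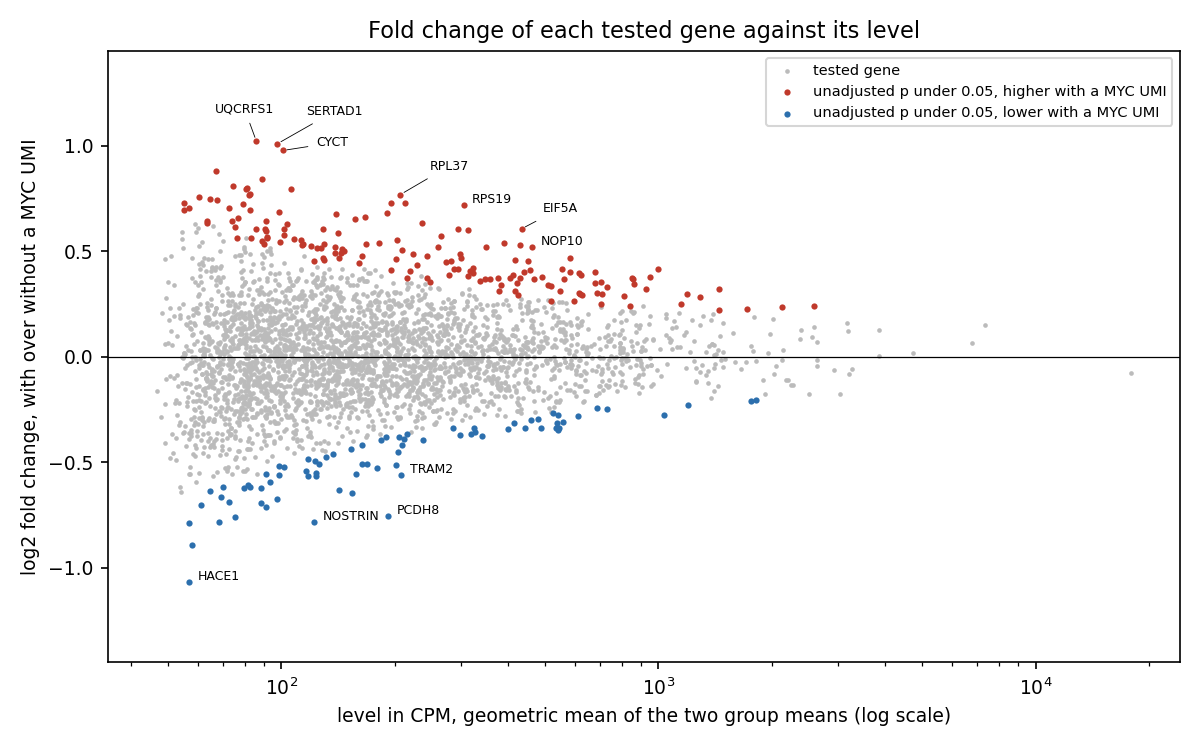
Log2 fold change of cells with over cells without a MYC UMI (vertical axis) against the level in CPM (horizontal axis, log scale) for the 3301 tested genes. Grey points are genes with an unadjusted p of 0.05 or more, red and blue points are the 158 genes higher and the 77 genes lower at an unadjusted p under 0.05, and 11 genes are named. No point is past the adjusted threshold, and the fold changes narrow as the level increases.

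The genes nearest to the threshold are given as values, since their p did not survive adjustment. EIF5A, a translation factor that carries the modified residue hypusine, had 80.4, 827, 345, 268, 643 and 1033 CPM in cells with a MYC UMI of Day3-E1, Day3-E2, Day3-E3, Day3-E5, Day3-E7 and Day3-E8. In cells without, the levels in the same order were 82.3, 358, 178, 268, 460 and 768 CPM. The groups overlapped over embryos, and within embryos the difference lay in Day3-E2, Day3-E3, Day3-E7 and Day3-E8 while Day3-E1 and Day3-E5 had nearly equal levels. The log2 fold change was 0.61 (standard error, SE, 0.14, edgeR p = 5.17e-05, adjusted p = 0.147). Without Day3-E5 it was 0.70, and EIF5A was then past the threshold (edgeR adjusted p = 0.0137), together with MRPL17.

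RPS19, a protein of the small ribosomal subunit, had 8.04, 517, 158, 134, 591 and 863 CPM in cells with a MYC UMI of the same embryos. Cells without had 27.4, 271, 96.5, 52.8, 233 and 789 CPM. It was higher with a MYC UMI in 5 of 6 embryos, the exception being Day3-E1, where few UMI were counted. Its log2 fold change was 0.72 (SE 0.18, edgeR p = 0.000105, adjusted p = 0.147). Without Day3-E8 it was 1.02, and RPS19 and SERTAD1 were then past the threshold (edgeR adjusted p = 0.0409). RPL37 of the large subunit was also higher in 5 of 6 embryos, with Day3-E3 as the exception (36.4 against 50.8 CPM), and had a log2 fold change of 0.77 (SE 0.21, edgeR adjusted p = 0.147).

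UQCRFS1, the Rieske iron-sulfur subunit of respiratory complex III, had the largest positive log2 fold change of the tested genes, 1.02 (SE 0.28, edgeR adjusted p = 0.147). Its level was 24.1 to 295 CPM (median 108) with and 4.22 to 159 CPM (median 48.5) without a MYC UMI, and after scaling it was higher in 5 of 6 embryos, with Day3-E3 nearly equal. CYCT, a testis form of cytochrome c, had a log2 fold change of 0.98 (SE 0.27) and was higher in 6 of 6 embryos. NDUFA4, another protein of the respiratory chain, had 0.60 (SE 0.17) and was higher in 5 of 6. ESPL1, the protease separase that releases sister chromatids, had 0.73 (SE 0.19, 6 of 6 embryos). DRG1, a GTP-binding protein, had 0.73 (SE 0.19, 5 of 6), SERTAD1, a co-regulator of transcription, 1.01 (SE 0.27, 5 of 6), and NOP10, a component of the H/ACA small nucleolar ribonucleoprotein, 0.52 (SE 0.14, 5 of 6). The adjusted p of each by edgeR's test was 0.147.

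Among genes lower in cells with a MYC UMI, HACE1, a ubiquitin ligase, had the largest difference. It had 64.4, 20.7, 78.8, 61.9, 8.69 and 4.15 CPM with a MYC UMI and 143.5, 30.7, 132, 113, 34.96 and 34.6 CPM without, in the order of embryos used for EIF5A. All 6 embryos went the same way, although the groups overlapped over embryos. The log2 fold change was -1.07 (SE 0.34, edgeR p = 0.00194, adjusted p = 0.229).

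NOSTRIN, which takes part in the trafficking of nitric oxide synthase, was likewise lower in 6 of 6 embryos, at 31.0 to 158 CPM (median 90.9) with and 48.4 to 274 CPM (median 173) without a MYC UMI. It had a log2 fold change of -0.78 (SE 0.23, edgeR adjusted p = 0.186). PCDH8, a protocadherin, had 0 to 593 CPM with and 2.111 to 706 CPM without a MYC UMI and was lower in 5 of 6 embryos, with a log2 fold change of -0.75 (SE 0.24, edgeR adjusted p = 0.219). The other members of the 10 lower genes with the smallest p were SUPT16H of the FACT histone chaperone, TRAM2, UMPS of pyrimidine synthesis, CHN2, TTF2, FKBP6 and EMILIN2. Their log2 fold changes lay between -0.71 and -0.52, with adjusted p of 0.268 to 0.396 by edgeR's test, and TRAM2, CHN2, TTF2 and EMILIN2 were lower in all 6 embryos.

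**Figure D4:**
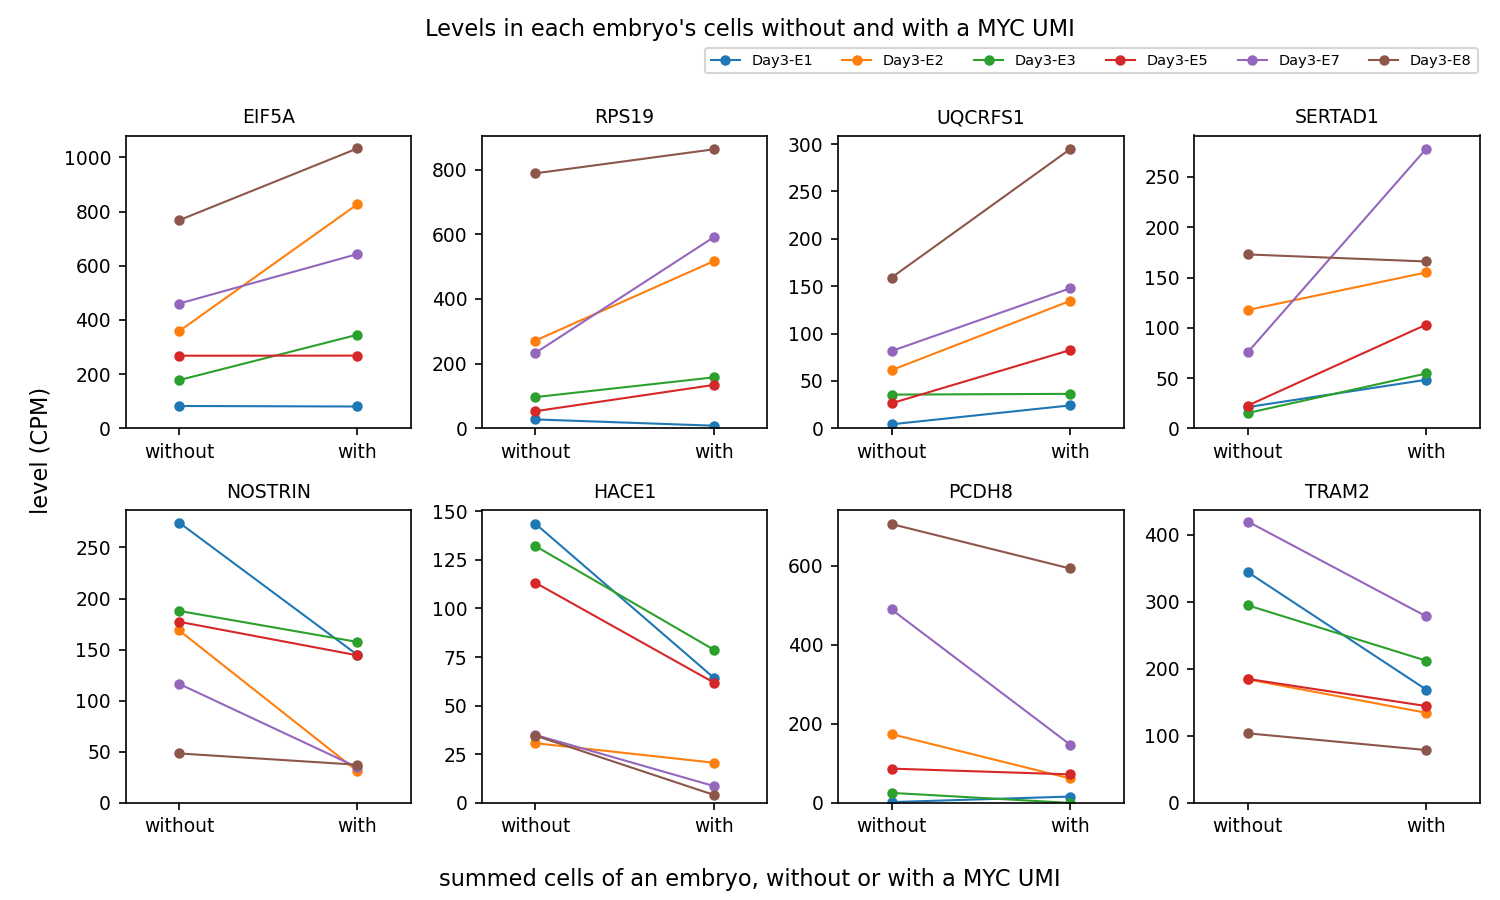
Levels in CPM (vertical axis, from 0) of 8 genes in the summed cells without and with a MYC UMI (horizontal axis). Each line joins the groups of an embryo. NOSTRIN, HACE1 and TRAM2 are lower with a MYC UMI in 6 of 6 embryos.

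Genes of the MYC pathway lay on both sides. Of 12 tested members of the MYC-MAX network, 5 were higher and 7 lower (50.8% of all tested genes were higher). At an unadjusted p under 0.05 there were 0, against 4.79% higher and 2.33% lower of all tested genes, and the median log2 fold change was -0.01, against 0.0047 over all tested genes. MAX, the dimer partner, had the largest value, with 212 ± 123 CPM with and 158 ± 81.8 CPM without a MYC UMI (SD, n = 6) and a log2 fold change of 0.38 (SE 0.20, edgeR adjusted p = 0.716). MGA, which competes for MAX, had 0.19 (SE 0.18) and MXI1, a repressor partner of MAX, -0.06 (SE 0.21). Of genes acting on MYC protein stability, FBXW7, a ubiquitin ligase subunit, had 0.03 (SE 0.18), USP28, a deubiquitinase, -0.24 (SE 0.18), SKP2, another ligase subunit, 0.12 (SE 0.16) and KIAA1524, an inhibitor of the phosphatase PP2A, 0.03 (SE 0.15). TRRAP, a scaffold of histone acetyltransferases, had -0.20 (SE 0.23), MYCBP -0.02 (SE 0.21) and MYCBP2 -0.0025 (SE 0.25). AURKA, a mitotic kinase that also stabilises MYC family proteins, was the most abundant tested gene, at 17398 ± 5614 CPM with and 18463 ± 5309 CPM without a MYC UMI (SD, n = 6), and its log2 fold change was -0.08 (SE 0.08).

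Genes that MYC is known to activate also lay on both sides. Of 38 tested MYC target genes 23 were higher and 15 lower, 60.5% higher against 50.8% of all tested genes, and the median log2 fold change was 0.03. In each direction 1 had an unadjusted p under 0.05, a count close to the 4.79% and 2.33% of all tested genes. Their summed level was 14707 ± 2965 CPM with and 14956 ± 3668 CPM without a MYC UMI (SD, n = 6), higher in 3 of 6 embryos and in 4 of 6 after scaling. Without 1 embryo the median of the targets ran from -0.0007 (without Day3-E2, 17 of 36 higher) to 0.09 (without Day3-E8). It was 0.11 in Day3-E1, Day3-E2 and Day3-E3, labelled p1 (24 of 37 higher), and -0.11 in Day3-E7 and Day3-E8, labelled p2 (14 of 40 higher). The nucleolar proteins NOLC1 and NCL had log2 fold changes of 0.30 (SE 0.12) and -0.23 (SE 0.11), the nucleolar protein NPM1 -0.05 (SE 0.10) and ODC1, the first enzyme of polyamine synthesis, 0.02 (SE 0.13). Of 11 tested upstream regulators of MYC, 7 were higher and 4 lower, with a median of 0.06, against 50.8% higher and 0.0047 over all tested genes. Without 1 embryo their median ran from 0.02 (without Day3-E3) to 0.11 (without Day3-E5 or Day3-E8), and it was below 0 in Day3-E7 and Day3-E8, the embryos labelled p2 (-0.23, 4 of 10 higher), with a depth term (-0.05, 5 of 11) and with no filter on low counts (-0.06, 5 of 13). YY1, a zinc finger factor, was the 1 member with an unadjusted p under 0.05 (log2 fold change 0.40, SE 0.19, edgeR adjusted p = 0.623).

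Cytosolic ribosomal protein genes lay mostly on the higher side. Of 71 tested, 60 were higher and 11 lower, 84.5% higher against 50.8% of all tested genes, and their median log2 fold change was 0.21 against 0.0047. At an unadjusted p under 0.05, 21 were higher and 0 lower, against 4.79% and 2.33% of all tested genes, and 5 were higher in all 6 embryos (2.21% of all tested genes). None passed the adjusted threshold. RPS24 had a log2 fold change of 0.47 (SE 0.13), RPL26 0.53 (SE 0.15), RPS29 0.54 (SE 0.16) and RPL37A 0.52 (SE 0.15). RPS27 had 0.49 (SE 0.18), RPL38 0.55 (SE 0.20) and RPS4Y1 0.14 (SE 0.17), while RPS12, the most abundant, had -0.02 (SE 0.11). Of the 71, 9 are also markers of the study's cell cluster K4, among them RPL26, RPS29, RPS27, RPL38 and RPS4Y1. The study chose those markers on these cells, so the direction of these 9 is not independent evidence. The counts given here include them.

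The summed level of the 76 ribosomal protein genes in the table was higher with a MYC UMI in 4 of 6 embryos, and in 5 of 6 after scaling, which turned Day3-E8. It was 22153 against 20136 CPM in Day3-E1, 45919 against 39879 in Day3-E2, 30987 against 26352 in Day3-E5 and 53852 against 42982 in Day3-E7. In Day3-E3 it was 22378 against 22885 and in Day3-E8 66283 against 66541 CPM, so the groups differed little in both. Over the 12 groups it ran from 20136 to 66541 CPM. Ribosomal protein genes have many processed pseudogenes and near-identical copies, so the counting may split their reads, and single members are uncertain. With MYC status called again after thinning each cell, which paired Day3-E2, Day3-E3, Day3-E4, Day3-E6, Day3-E7 and Day3-E8, 34 of 63 tested ribosomal protein genes were higher and the median was 0.02 against 0.0096 over all genes. With a depth term in the fit 66 of 71 were higher.

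Genes of the list of maternal and oocyte transcripts lay mostly on the lower side. Of 24 tested genes of the list 1 was higher and 23 were lower in cells with a MYC UMI, 4.17% higher against 50.8% of all tested genes. The median log2 fold change was -0.12 against 0.0047. At an unadjusted p under 0.05, 0 were higher and 2 lower (4.79% and 2.33% of all tested genes). The 1 higher gene was ZP3, a sperm receptor of the zona pellucida (0.03, SE 0.17). Of the 24, 4 were listed by the study from these cells, and no maternal or oocyte role is given for them here. The direction of these 4 is therefore not independent evidence. The counts and sums given here include them. The summed level of the 35 genes in the table was 20898 against 20919 CPM in Day3-E1, 11247 against 13383 in Day3-E2 and 19004 against 21986 in Day3-E3. It was 20424 against 20327 in Day3-E5, 15297 against 17695 in Day3-E7 and 4899 against 6005 in Day3-E8. Day3-E1 and Day3-E5 had nearly equal sums, and the other 4 embryos were lower with a MYC UMI. Day3-E1 and Day3-E5 also had the smallest share and the fewest cells with a MYC UMI (2 and 3 cells). A link to the share was not tested.

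ZP2, a zona pellucida glycoprotein, had 674 ± 342 CPM with and 786 ± 249 CPM without a MYC UMI (SD, n = 6), a log2 fold change of -0.25 (SE 0.12, edgeR adjusted p = 0.637). TMEM128, for which no oocyte role is given here, had the lowest value of the list, -0.62 (SE 0.27, edgeR adjusted p = 0.526). GDF9, an oocyte growth factor, had -0.21 (SE 0.13) and was lower in 6 of 6 embryos. KPNA7, the oocyte importin, had -0.13 (SE 0.10) and H1FOO, the oocyte linker histone, -0.11 (SE 0.12).

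The 88 genes that the study lists as markers of its cell cluster K4 were chosen by the study on these cells, so their direction is not independent evidence. Of 67 tested, 55 were higher and 12 lower with a MYC UMI, 82.1% higher against 50.8% of all tested genes, with a median log2 fold change of 0.19 against 0.0047 (0.36 without Day3-E8). At an unadjusted p under 0.05, 18 were higher and 1 lower (4.79% and 2.33% of all tested genes). Ribosomal protein genes made up 9 of the 67, and of the other 58, 46 were higher and 12 lower, with a median of 0.17. The summed level was 2293 against 2332 CPM in Day3-E1, 22298 against 18404 in Day3-E2 and 7227 against 5221 in Day3-E3. It was 4900 against 5410 in Day3-E5, 22919 against 16087 in Day3-E7 and 42085 against 40662 in Day3-E8. Day3-E1 and Day3-E5 were lower with a MYC UMI and the other 4 embryos higher. MRPL17, a mitochondrial ribosomal protein, had a log2 fold change of 0.60 (SE 0.17) and GART of purine synthesis 0.47 (SE 0.17). The study's 20 activation genes summed to 872 ± 762 CPM with and 809 ± 751 CPM without a MYC UMI (SD, n = 6), higher in 4 of 6 embryos. With no filter on low counts, 14 of the 20 were higher (median 0.26, against 44.0% and -0.06 over all genes). Of these 20 genes only DDX3Y and FOLR1 had enough counts for the reported fit. FOLR1, a folate receptor, had 330 against 304 CPM and a log2 fold change of 0.16 (SE 0.18), and DDX3Y, an RNA helicase gene of the Y chromosome, had 184 against 232 CPM and -0.29 (SE 0.19).

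Other lists of growth genes differed less from the background. Ribosome biogenesis genes were higher in 32 of 51 tested (median 0.08, against 50.8% and 0.0047 over all tested genes), with 3 higher and 0 lower at an unadjusted p under 0.05 (4.79% and 2.33% of all), among them NOP10 and the helicase DDX52 (log2 fold change 0.57, SE 0.17, edgeR adjusted p = 0.161). Nucleotide and one-carbon synthesis genes were higher in 15 of 23 (median 0.08), and 2 in each direction had an unadjusted p under 0.05, GART and ADSL higher and UMPS and RRM2 lower. Glycolysis genes were higher in 3 of 8 (median -0.0043), and SLC2A3, a glucose transporter and the most abundant of them, had a log2 fold change of 0.19 (SE 0.11). Cell cycle genes were higher in 22 of 40 (median 0.03), with MAD2L1 of the spindle checkpoint at 0.41 (SE 0.13, edgeR adjusted p = 0.200) and the replication clamp PCNA at 0.37 (SE 0.13), both higher in 6 of 6 embryos. The cell cycle count was 20 of 40 without Day3-E7 (median -0.0076), 26 of 40 without Day3-E8 (median 0.09) and 18 of 41 in the p2 embryos (median -0.05). In the p2 embryos ribosome biogenesis genes were higher in 23 of 55 (median -0.03) and nucleotide and one-carbon synthesis genes in 8 of 19 (median -0.03). Among the most abundant of all tested genes, CKS2, a small cyclin-dependent kinase subunit, had 0.15 (SE 0.09), TACC3 of the spindle 0.02 (SE 0.09), and the thymosins TMSB4X and TMSB10 had 0.06 (SE 0.10) and 0.13 (SE 0.09).

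Over all tested genes 50.8% were higher, with a median of 0.0047, and at an unadjusted p under 0.05 4.79% were higher and 2.33% lower. Immediate-early and stress-response genes were higher in 12 of 18 tested (median 0.10), and 3 had an unadjusted p under 0.05, all higher. These were the chaperone DNAJB1 (log2 fold change 0.30, SE 0.11, 6 of 6 embryos), the phosphatase DUSP1 (0.45, SE 0.19) and the transcription factor ATF3 (0.43, SE 0.19). The p53 and apoptosis genes were higher in 4 of 6 (median 0.18), with 0 at an unadjusted p under 0.05. Without Day3-E5 it was 3 of 6 (median 0.03), and in the embryos labelled p1 1 of 6 (median -0.11). Of a pair of lists added after values were seen, mitochondrial ribosomal protein genes were higher in 26 of 35 (median 0.08, 1 higher and 0 lower at an unadjusted p under 0.05), and oxidative phosphorylation genes in 21 of 33 (median 0.15, 4 higher and 0 lower). Without Day3-E1 the latter were higher in 16 of 31 (median 0.03), and with status called after thinning in 4 of 12 (median -0.06).

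**Figure D5:**
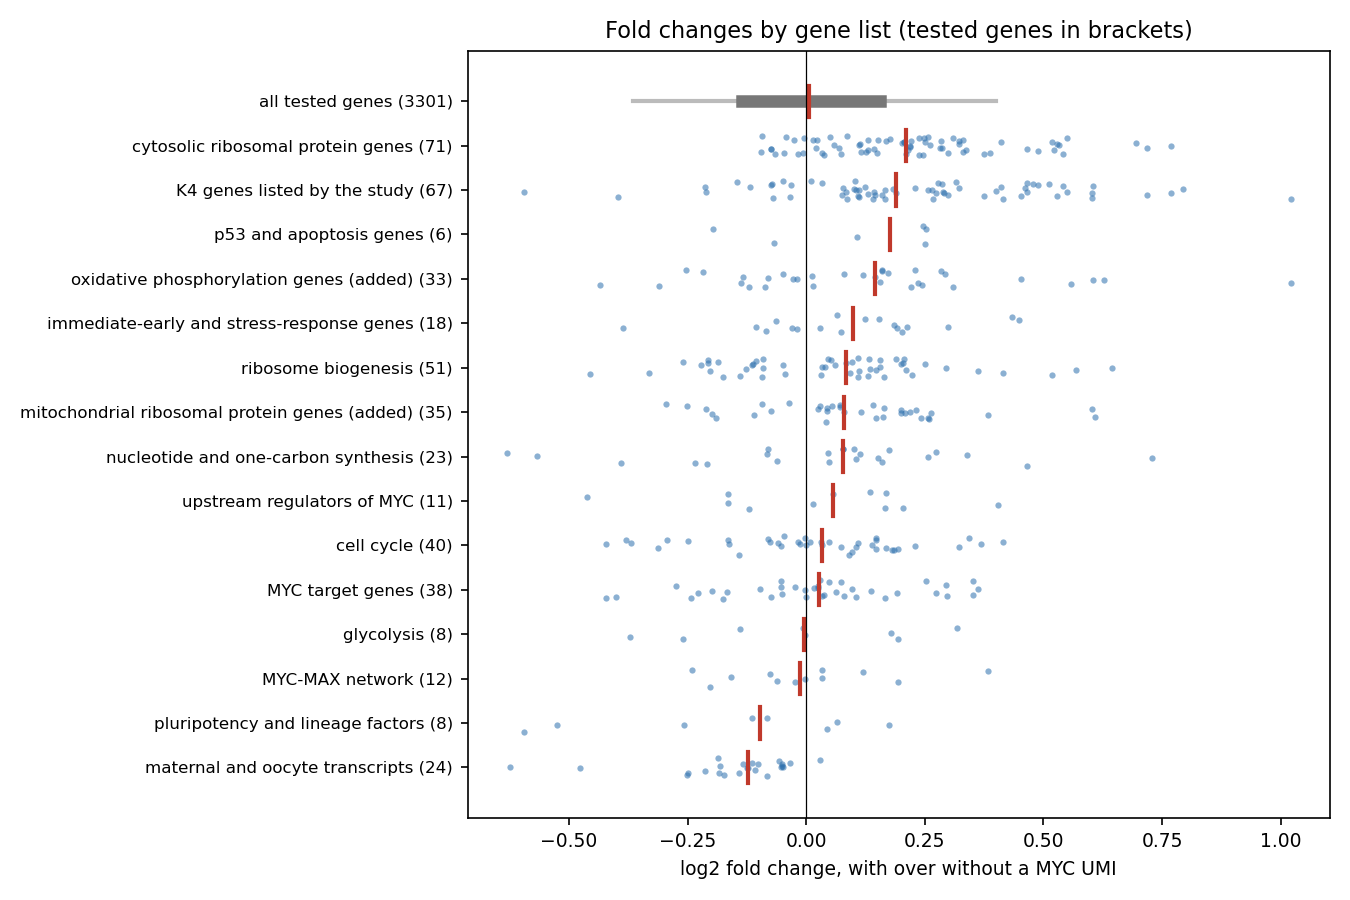
Log2 fold change of cells with over cells without a MYC UMI (horizontal axis) for the tested genes of each list with 5 or more of them, with the number tested in brackets. Blue points are genes with a little vertical scatter, red lines are medians, and the grey bars of all tested genes span the middle 50% (dark) and 90% (light). Medians run from -0.12 for maternal transcripts to 0.21 for cytosolic ribosomal protein genes, and the single-gene values overlap with those of all genes.

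Pluripotency and lineage factors had 3 higher and 5 lower genes of 8 tested (50.8% of all tested genes were higher), with a median of -0.10 that ran from -0.12 (without Day3-E1) to -0.03 (without Day3-E8) when 1 embryo was left out and was -0.04 without Day3-E3. KLF4 had 1234 ± 693 CPM with and 1217 ± 928 CPM without a MYC UMI (SD, n = 6), a log2 fold change of 0.18 (SE 0.12, edgeR adjusted p = 0.839). In the embryos with the label p1 alone, Day3-E1, Day3-E2 and Day3-E3, it was 0.62 (SE 0.15, edgeR adjusted p = 0.0487). In the pair of embryos with the label p2, Day3-E7 and Day3-E8, it was -0.21 (SE 0.19), a fit added after the data were seen. The label p3 held 1 paired embryo, Day3-E5, which allows no fit. What the labels stand for is not given in the sources used here. The p1 embryos were collected earliest after fertilisation and the p2 embryos last, so label and embryo age cannot be told apart. With a depth term over all 6 embryos the log2 fold change of KLF4 was -0.06. KLF5, a factor of both blastocyst lineages, had 74.9 ± 84.9 against 115.9 ± 145.2 CPM, a log2 fold change of -0.59 (SE 0.29, edgeR p = 0.0403, adjusted p = 0.637), and was lower in 5 of 6 embryos. SALL4 had 0.07 (SE 0.11), TFAP2C 0.04 (SE 0.13), SOX2 -0.11 (SE 0.32), DPPA3 -0.08 (SE 0.09), GATA2 -0.26 (SE 0.21) and PDGFRA, a growth factor receptor, -0.52 (SE 0.29). RHEBL1, a GTPase of mTOR signalling, had 0.01 (SE 0.17).

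Several factors named by the study had too few counts for the test, and their levels are given for all cells of a group. NANOG, a factor of the epiblast, had 39.1 ± 37.5 CPM with and 31.6 ± 39.1 CPM without a MYC UMI (SD, n = 6). A NANOG UMI was found in 16 of 28 cells with (57.1%) and 14 of 50 cells without a MYC UMI (28.0%). Taken per embryo, the shares were 45.4% ± 29.5 and 34.7% ± 37.3 (SD, n = 6), higher with a MYC UMI in 4 and lower in 2 embryos, as was the scaled level. The difference was not tested. After thinning the shares were 26.3% ± 20.7 and 22.7% ± 23.3, higher with a MYC UMI in 2 and lower in 3 embryos. POU5F1 had 41.9 against 37.7 CPM, with a UMI in 18 of 28 and 30 of 50 cells. Per embryo its shares were 72.5% ± 25.5 and 56.8% ± 26.6 (SD, n = 6), higher with a MYC UMI in 3 and lower in 2 embryos. CDX2, a trophectoderm factor, had 5.10 against 6.64 CPM, with a UMI in 3 of 28 and 7 of 50 cells. Per embryo the CDX2 share was higher with a MYC UMI in 3 and lower in 2 embryos. Its mean over embryos was slightly higher with a MYC UMI, unlike the pooled share, by less than the SD of either group. Neither difference in share was tested. FOSL1 had 18.4 against 29.8 CPM, PCDH10 15.7 against 21.5, SALL1 11.197 against 3.51, and GRO1, the chemokine CXCL1, 120 against 112 CPM. SALL1 rested on 9 UMI with and 7 without a MYC UMI.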

How the data were processed

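The authors aligned 3'-tag reads with STAR 2.5.2b to the bovine genome and deposited UMI counts per gene and cell from the Drop-seq pipeline. These deposited counts are not normalised. For each embryo, the counts of cells with and of cells without a MYC UMI were summed (96743 to 473786 UMI per sum), and genes were tested with edgeR 4.0.16 (quasi-likelihood test, TMM scaling, filterByExpr, embryo as block, Benjamini-Hochberg adjusted p under 0.05) in R 4.3.3. Each pair comes from the same embryo. DESeq2 1.42.0 was an alternative. Levels are CPM of the sums, and counts of embryos that were higher or lower use TMM-scaled values, with equal values counted as neither, while summed levels of lists are unscaled CPM unless stated. Intervals cover counting error only. The members and gene lists were chosen with earlier results of these data known. Named genes were the 10 with the smallest p in each direction, tested members of the MYC-MAX network and of the pluripotency and lineage factors, genes named by the study and the 5 with the highest mean CPM. Some named genes are not reported here. Other list members were chosen after their values were seen. Doublets were not called, since blastomeres were picked singly. The procedure was tested on simulated data, in which the changed genes had larger fold changes than nearly all tested genes here. That check does not show how small a difference could be found.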

Additional observations from a re-analysis of the deposited data

Results flagged for a closer look

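In 72 sets of values, 1 embryo was examined for standing apart from the rest of its group, which chance gives in about 1 of 20 sets, and 7 did so. As the log2 difference in CPM between cells with and without a MYC UMI, TRAM2 had -1.01 in Day3-E1 (next -0.51), SALL4 0.61 in Day3-E7 (next 0.08), RPS4Y1 1.502 in Day3-E3 (next 0.25), MXI1 -1.61 in Day3-E7 (next -0.13) and TRRAP -1.58 in Day3-E8 (next -0.24). The summed level of the mitochondrial ribosomal protein genes had a log2 ratio of -0.14 in Day3-E3 (next 0.06), the lowest of the 6 embryos. The MYC level of all cells was 103.0 CPM in Day3-E6, which was not paired, and 48.7 CPM in the next embryo, Day3-E4.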

How the results depend on the processing

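Of 23 alternatives, 19 also called 0 genes at an adjusted p under 0.05, although 1 repeats the reported fit (the Day3-E3 cell it leaves out was under the UMI minimum) and the fit with 3 or more cells per group is that without Day3-E1. Leaving out 1 embryo gave 0 to 2 calls, the embryos labelled p1 alone gave 2 (EIF5A and KLF4), and cells with 2000 or more UMI, in 7 embryos, gave 5 (EIF5A, LOC780876, MAD2L1, MRPL17 and RPS19), all higher with a MYC UMI. Of 3301 tested genes, those with an unadjusted p under 0.05 numbered 235 in the reported fit and 113 by DESeq2. With no replicate block (the pairing of an embryo's groups) they numbered 10. There were 387 of 10020 with no filter on low counts, 93 of 1503 in thinned sums and 113 of 1316 with MYC status called after thinning. The embryos labelled p2 had 144 of 3093 (added after the data were seen), and leaving out 1 embryo gave 190 to 259. With 2000 or more UMI the depth difference was 0.81 on the log2 scale and the difference in detected genes 778 (exact permutation test over 7 embryos, p = 0.0156 for both, the smallest it allows), and the ERCC difference was -0.25 percentage points. After thinning the difference in detected genes was -3.43. Among named genes whose log2 fold change exceeded its standard error, the sign changed for KLF4 with a depth term (-0.059) and in the p2 embryos (-0.21), for UQCR10 in the p2 embryos (-0.086), for TMSB10 with no replicate block (-0.0083), with a depth term (-0.012), in the p2 embryos (-0.12) and with status called after thinning (-0.19), and in the last also for ZP2 (0.023), RPL26 (-0.084) and RPL37A (-0.080). The cause was not tested. Over all alternatives the median log2 fold change ran from 0.02 to 0.27 for ribosomal protein genes, from -0.27 to -0.09 for maternal transcripts, from 0.16 to 0.41 for the K4 genes and from -0.11 to 0.11 for MYC targets. When 1 embryo was left out, medians ran from 0.03 to 0.09 for ribosome biogenesis (lowest without Day3-E1 or Day3-E7), 0.03 to 0.10 for nucleotide synthesis (lowest without Day3-E3), 0.02 to 0.17 for immediate-early genes (lowest without Day3-E2) and 0.03 to 0.13 for mitochondrial ribosomal protein genes (lowest without Day3-E1), and spanned 0 for the MYC-MAX network (-0.05 without Day3-E2 to 0.05 without Day3-E1) and glycolysis (-0.08 without Day3-E1 to 0.06 without Day3-E8). In the p2 embryos the medians of ribosome biogenesis and of nucleotide synthesis were both -0.03 (23 of 55 and 8 of 19 higher). With no filter on low counts immediate-early genes were higher in 17 of 39 (median -0.06, against 44.0% and -0.06 over all genes). With 14 of 28 cells resting on 1 MYC UMI, depth limits both the calling of the groups and the genes that could be tested.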

Other observations

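OVOL2, a zinc finger factor of epithelia that the study lists among its activation genes, had too few counts for the test. Its level was 41.6 CPM with and 15.38 CPM without a MYC UMI (42 and 18 UMI in all), after scaling higher in 5 and lower in 1 of the embryos, and a fit of all genes, with low counts kept, put it at 1.44 on the log2 scale (edgeR p = 0.0051), which did not pass the adjusted threshold. OVOL2 was the 1 of the 20 activation genes with an unadjusted p under 0.05 in that fit. Over all genes of that fit there were 387 of 10020, 163 higher and 224 lower. The same fit put NANOG at 0.39 (SE 0.45), POU5F1 at 0.10 (SE 0.39) and PCDH10 at -0.39 (SE 0.66). PRDM14, a pluripotency regulator, had 50.02 against 31.6 CPM, higher in 3 and lower in 1 of the embryos. LIN28A, an RNA-binding protein, had 2.35 against 14.49 CPM (2 and 25 UMI in all).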
